A study of Mus musculus with 14 samples.

Results

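The genes described here make and rearrange disulfide bonds in the endoplasmic reticulum (ER) of mouse embryonic fibroblasts. They are the oxidases Ero1l and Ero1lb, the protein disulfide isomerases Pdia3, Pdia4, Pdia5 and Pdia6, and the thioredoxin-domain proteins Txndc5 and Txndc11. They were chosen with earlier results of these data known and taken by symbol from a table of 24015 genes. All 8 were present and passed the filter on low counts. P4hb, the archetypal member of the isomerase family, was not among the chosen genes and is described with the other oxidative folding genes. Total RNA was sequenced in 14 libraries of strain 129s2 fibroblasts, taken at embryonic day 14.5, used at passages 3 to 4 and kept for 18 h in one of 2 media. Wild-type cells in normal medium (WT-NT) gave 4 libraries and wild-type cells in medium lacking glucose (WT-GS) gave 3. SirT7-/- cells in normal medium (KO-NT) gave 4 libraries and SirT7-/- cells in medium lacking glucose (KO-GS) gave 3. SirT7 is an NAD-dependent deacylase of the sirtuin family, and the design asks how its absence bears on the response to glucose starvation. The labels do not say how the allele was made, or whether replicates are separate cultures, embryos or lines, so p-values measure only the spread between these samples, which may be technical.

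Total counts per library ran from 59788270 to 91607861, and levels are given as CPM, the count scaled to the library total. Sirt7 lay between 16.9 and 23.1 CPM in the 7 wild-type libraries and between 0.301 and 1.41 CPM in the 7 SirT7-/- libraries. The media were less uniform. On a scale over 5154 genes that edgeR called for starvation in a separate fit of the 7 wild-type libraries alone (adjusted p under 0.05), without the disulfide genes, 0 is the mean of WT-NT and 1 the mean of WT-GS. The library labelled KO-NT 4 fell at 0.85, near the starved libraries, and that labelled KO-GS 3 at 0.187. KO-NT 1 to 3 lay between -0.015 and 0.0582, KO-GS 1 at 0.872 and KO-GS 2 at 0.904. KO-NT 4 was closest to KO-GS 1 (Pearson 0.9897 over log2 CPM of the genes tested) and KO-GS 3 to WT-NT 4 (0.9884). They are called the 2 displaced libraries below. All groups are used as labelled, and for the 8 genes the edgeR calls of each comparison are also given without both. Correlations and the DESeq2 and limma-voom fits were run only with both libraries in. Summed over 11 fibroblast markers, the level was 43700 to 51000 CPM in WT-NT and 24900 to 26600 CPM in WT-GS. In KO-NT it was 28500 to 51100 CPM and in KO-GS 26500 to 43500 CPM. Summed over 15 macrophage markers, it was 338 to 2230 CPM in WT-NT, 13.8 to 385 in WT-GS, 436 to 797 in KO-NT and 122 to 1180 in KO-GS, and no marker of either list was at 0 in every library of a group. The sums over 10 skeletal muscle, 6 epithelial and 5 endothelial markers were 83.6 to 250, 4.34 to 12.6 and 6.08 to 22 CPM across all libraries. In each group 1 or 2 of the muscle markers and 1 of the epithelial markers were at 0 in every library, and 0 of the endothelial markers. Whether these markers have a part in the results below was not tested, and in bulk RNA fewer cells of a type and less RNA per cell cannot be told apart.

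Secreted and membrane proteins gain their disulfide bonds in the ER. Isomerases carry pairs of cysteines that oxidise, reduce or shuffle bonds in a client protein, and Ero1 oxidases recharge the isomerases by passing their electrons to oxygen, which yields hydrogen peroxide. When unfolded proteins build up in the ER, the sensors Ern1, Eif2ak3 and Atf6 start the unfolded protein response, and many folding enzymes are among its known targets. Several ER chaperones were first described as glucose-regulated proteins, because their amounts rise in cells that lack glucose. The response acts partly through short promoter words: the ER stress element, in which CCAAT and CCACG stand 9 bases apart, and a word read by Xbp1 and Atf6, TGACGTGG.

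The promoters of the genes were searched for these words, because the genes separated into responsive and unresponsive ones below. RefSeq sequence on GRCm38.p6 gave 11 windows for the 8 genes, each 300 bases long, from 250 before a start site to 50 after it. All 8 genes matched, Ero1l and Ero1lb under their current symbols Ero1a and Ero1b. The submitters' processing notes name another build, mm9, so these coordinates belong to the RefSeq windows only. The stretches of 4 genes, each the 250 bases before the start site, are shown 5′ to 3′ on the gene's own strand. They lie at chr13:12565633-12565882 (plus strand) for Ero1lb, chr12:17266339-17266588 (plus strand) for Pdia6, chr16:11134533-11134782 (minus strand) for Txndc11 and chr6:47813513-47813762 (minus strand) for Pdia4. Capitals mark both words of the ER stress element in Ero1lb and Pdia6, TGACGTGG in Txndc11 and the CCAAT words, which on the other strand read ATTGG, in Pdia4.
Ero1lb: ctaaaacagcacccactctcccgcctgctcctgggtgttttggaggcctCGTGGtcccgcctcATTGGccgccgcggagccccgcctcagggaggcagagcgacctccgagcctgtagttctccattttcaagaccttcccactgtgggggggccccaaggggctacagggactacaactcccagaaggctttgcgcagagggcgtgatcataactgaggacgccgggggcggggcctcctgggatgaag
Pdia6: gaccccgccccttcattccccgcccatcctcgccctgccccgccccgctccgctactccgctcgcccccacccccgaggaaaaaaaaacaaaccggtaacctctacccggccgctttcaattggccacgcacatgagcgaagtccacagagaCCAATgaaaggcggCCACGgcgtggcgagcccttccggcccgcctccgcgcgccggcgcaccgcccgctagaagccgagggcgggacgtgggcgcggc
Txndc11: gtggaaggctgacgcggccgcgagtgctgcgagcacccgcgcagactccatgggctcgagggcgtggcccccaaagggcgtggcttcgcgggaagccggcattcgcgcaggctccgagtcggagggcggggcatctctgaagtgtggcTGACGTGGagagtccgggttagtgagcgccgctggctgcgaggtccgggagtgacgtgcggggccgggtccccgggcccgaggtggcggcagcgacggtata
Pdia4: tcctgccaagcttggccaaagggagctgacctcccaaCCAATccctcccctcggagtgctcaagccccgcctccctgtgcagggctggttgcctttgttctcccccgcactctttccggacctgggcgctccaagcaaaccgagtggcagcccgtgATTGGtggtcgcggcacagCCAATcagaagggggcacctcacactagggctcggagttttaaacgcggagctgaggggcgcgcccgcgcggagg

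Both strands of every window were searched. The ER stress element was found in Ero1lb, on the minus strand from base -201 to -183 counted from the start site, and in Pdia6, on the plus strand from -98 to -80. Of all 32851 promoter windows of this length, 39 held it, or 0.119%. TGACGTGG was found in the window of Txndc11 shown, from -102 to -95, and in the third window of Txndc5, from -138 to -131; 0.676% of all windows held it. Its inner letters ACGTG are also a core of the word read by hypoxia-inducible factors. Other forms of the core were not searched, and 19.6% of all windows held ACGTG. Ero1l, Pdia5 and Pdia6 had ACGTG once each, in Ero1l at -63 to -59. Txndc11 had it at -100 to -96, within its TGACGTGG, and at -49 to -45. Txndc5 had it at -20 to -16 in its first window. In the third window of Txndc5 it stood at -136 to -132, within its TGACGTGG, and on opposite strands at 36 to 40 and 37 to 41. Pdia4 held 3 CCAAT words and Pdia3 held 2, without a CCACG at the right distance, and 37.4% of all windows held at least 1. Neither the second form of the element, with ATTGG and CCACG 1 base apart (0.0365% of windows), nor TGATGCAA, the core of the word read by Atf4 with its partners (0.895%), was found in any of the 11 windows. Ero1l, Pdia3 and Pdia4, which rose on starvation below, held no ER stress element and no TGACGTGG, and nor did Pdia5. Txndc5, which was not called, held TGACGTGG, so the words did not follow the division of the genes. These are matches of letters and not measured sites, and whether they bear on the levels was not tested.

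In unstarved wild-type cells the isomerases stood above the oxidases. Per kilobase of merged exons (GENCODE M21, since the annotation behind the counts is not given in the sources used here), Pdia3 was the highest at 467 ± 21.1 CPM per kb (SD, n = 4). Pdia6 followed at 284 ± 57.1, Txndc5 at 160 ± 13.8 and Pdia4 at 151 ± 11.6 CPM per kb, and the libraries of Txndc5 and Pdia4 overlapped. Pdia5 stood at 70.8 ± 9.16 CPM per kb and Ero1l at 28.4 ± 5.45. Txndc11 stood at 4.01 ± 0.499 CPM per kb and Ero1lb was the lowest at 0.56 ± 0.12. Apart from Txndc5 and Pdia4, neighbours in this order had ranges that did not overlap. After starvation (n = 3) Pdia3 remained the highest at 1490 ± 205 CPM per kb. Pdia4 at 1020 ± 202 and Pdia6 at 993 ± 137 CPM per kb overlapped, both now above Txndc5 at 167 ± 2.33. Ero1l at 99.6 ± 4.32 CPM per kb stood above Pdia5 at 84.8 ± 8.21, and Ero1lb at 8.27 ± 1.14 above Txndc11 at 6.85 ± 0.292 CPM per kb, without overlap in either pair.

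**Figure D1:**
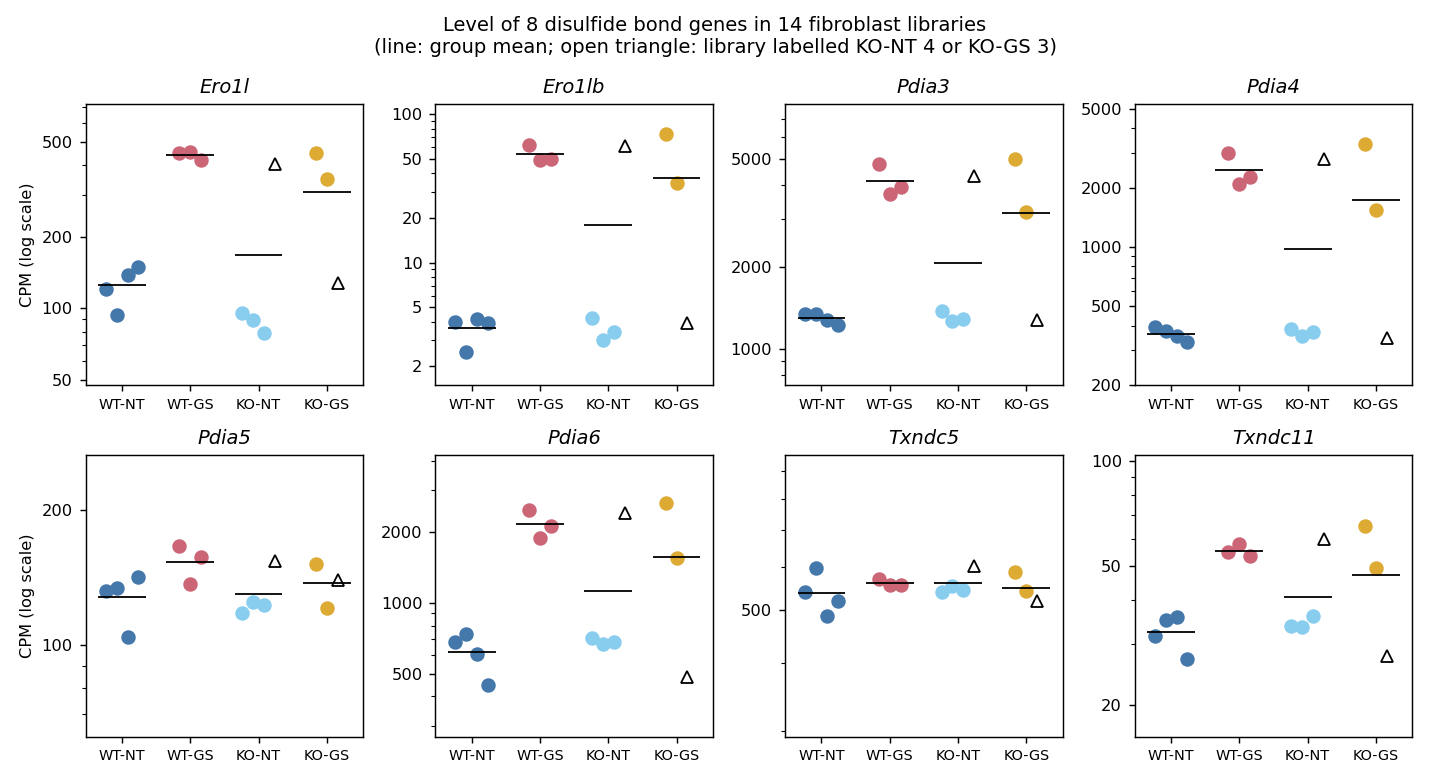
Level of each gene in CPM (vertical axis, log scale) in each of the 14 libraries, with a point per library and a line at the group mean. The open triangles are the displaced libraries KO-NT 4 and KO-GS 3, which for Ero1l lay at 404 and 128 CPM, and Pdia5 and Txndc5 change little between groups compared with the other genes.

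Starved wild-type fibroblasts had more RNA of both oxidases, of Pdia3, Pdia4 and Pdia6, and of Txndc11, while Pdia5 and Txndc5 did not pass the test. Of the 8 genes, edgeR's quasi-likelihood F-test called 6 higher and 0 lower (adjusted p under 0.05), with a median log2 change of 1.79 over the 8. Of all 15666 genes tested, 25.9% were called and 12.9% were called higher, so that being called is common in this contrast, and the median log2 change of all genes was -0.04. In 6 of the 8 genes all WT-GS libraries lay above all WT-NT libraries, as was true of 19.9% of all genes tested. Each log2 change below has a standard error (SE) derived from its F statistic and a Benjamini-Hochberg adjusted p from that edgeR test over all genes. The SE uses the spread inside every group of the fit, the 2 displaced libraries among them.

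Ero1lb, the oxidase best known from the pancreas and other secretory tissue, moved most. Its level was 3.99, 2.48, 4.15 and 3.93 CPM in the WT-NT libraries, against 62.3, 49 and 49.9 CPM in the WT-GS libraries. A gene that was scarce in normal medium was therefore well detected in every starved wild-type library. The log2 change was 3.93 (SE 1.09, 95% interval 1.57 to 6.29, adjusted p = 0.0281), or 15.2-fold, which ranked 45 of 15666 genes from the top. Ero1l, the widely expressed oxidase, went from 121, 93.7, 138 and 149 CPM to 450, 452 and 418 CPM. The starved libraries lay close together and well above the others, although WT-NT itself spanned 93.7 to 149 CPM. Its log2 change was 1.85 (SE 0.534, 95% interval 0.70 to 3.01, adjusted p = 0.0307), or 3.62-fold.

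Among the isomerases Pdia4, whose chain holds more thioredoxin-like active sites than that of Pdia3, moved most. It was at 395, 375, 352 and 331 CPM in WT-NT and at 3000, 2080 and 2280 CPM in WT-GS. Its log2 change was 2.80 (SE 0.779, 95% interval 1.11 to 4.49, adjusted p = 0.0283), or 6.95-fold, at rank 110. Pdia3 works with calnexin and calreticulin on newly made glycoproteins and is the most abundant of the genes. It went from 1340, 1340, 1270 and 1220 CPM to 4780, 3700 and 3940 CPM, a log2 change of 1.72 (SE 0.458, 95% interval 0.73 to 2.72, adjusted p = 0.0261). Pdia6, an isomerase that also binds the sensors of the unfolded protein response, went from 683, 733, 604 and 449 CPM to 2480, 1890 and 2110 CPM. Its log2 change was 1.85 (SE 0.527, 95% interval 0.71 to 2.99, adjusted p = 0.0301), the same in size as that of Ero1l. In all 3 genes WT-GS 1 was the highest library, and no starved library came near the unstarved ones.

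Txndc11, a membrane-bound protein with thioredoxin domains that takes part in ER-associated degradation, rose less. Its levels of 31.6, 35.2, 35.9 and 27.1 CPM stood against 54.8, 58 and 53.4 CPM after starvation. The log2 change was 0.81 (SE 0.252, 95% interval 0.27 to 1.36, adjusted p = 0.0366), or 1.76-fold. Pdia5, an isomerase of the same family, was at 132, 134, 104 and 142 CPM in WT-NT and at 166, 137 and 157 CPM in WT-GS. Its groups overlapped, and its log2 change of 0.31 (SE 0.123, 95% interval 0.04 to 0.57) did not pass the test over all genes (adjusted p = 0.0772). Without the 2 displaced libraries in the fit it did, at 0.32 (95% interval 0.08 to 0.57, adjusted p = 0.0395). Txndc5, an isomerase-like protein with several thioredoxin domains that is studied in fibrosis, was at 539, 598, 488 and 520 CPM and then at 569, 555 and 556 CPM. Its log2 change was 0.11 (95% interval -0.09 to 0.30, adjusted p = 0.375), so that the interval holds no rise as large as that of Txndc11. In rank of log2 change, Txndc11 stood at 1449, Pdia5 at 4251 and Txndc5 at 6245 of 15666.

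The number of calls in wild-type cells depended on which libraries shared the fit. Without any single one of WT-NT 1, WT-NT 2, WT-NT 3, WT-GS 1, WT-GS 2 or WT-GS 3, edgeR called 0 of the 8 genes, although 6 or 7 had an unadjusted p under 0.05. Of all genes it called 8.77% without WT-NT 1, 13.2% without WT-NT 2, 0.00628% without WT-GS 3 and 0% in the remaining 3 of these fits. In these fits the adjusted p of the 6 genes reached 0.0809 for Ero1lb to 0.0944 for Txndc11. Without WT-NT 4 it called 5 and 31.1% of all genes, losing Txndc11 (adjusted p = 0.0604). With all libraries DESeq2 called 7 and limma-voom 6, against 36.7% and 22.8% of all genes. The log2 changes hardly moved: over all 14 such fits that of Ero1lb stayed between 3.784 and 4.002 and that of Txndc11 between 0.731 and 0.867. After the 2 displaced libraries had been left out, edgeR called 7 of 8 genes higher, where 39.6% of 15864 genes were called and 20.4% were called higher. Leaving out each of the remaining 12 libraries in turn then gave 6 to 8 calls, with 28.9% to 47.3% of all genes called. The adjusted p of Ero1lb in the fit without both libraries was 4.21e-06 and that of Pdia4 1.08e-05.

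**Figure D2:**
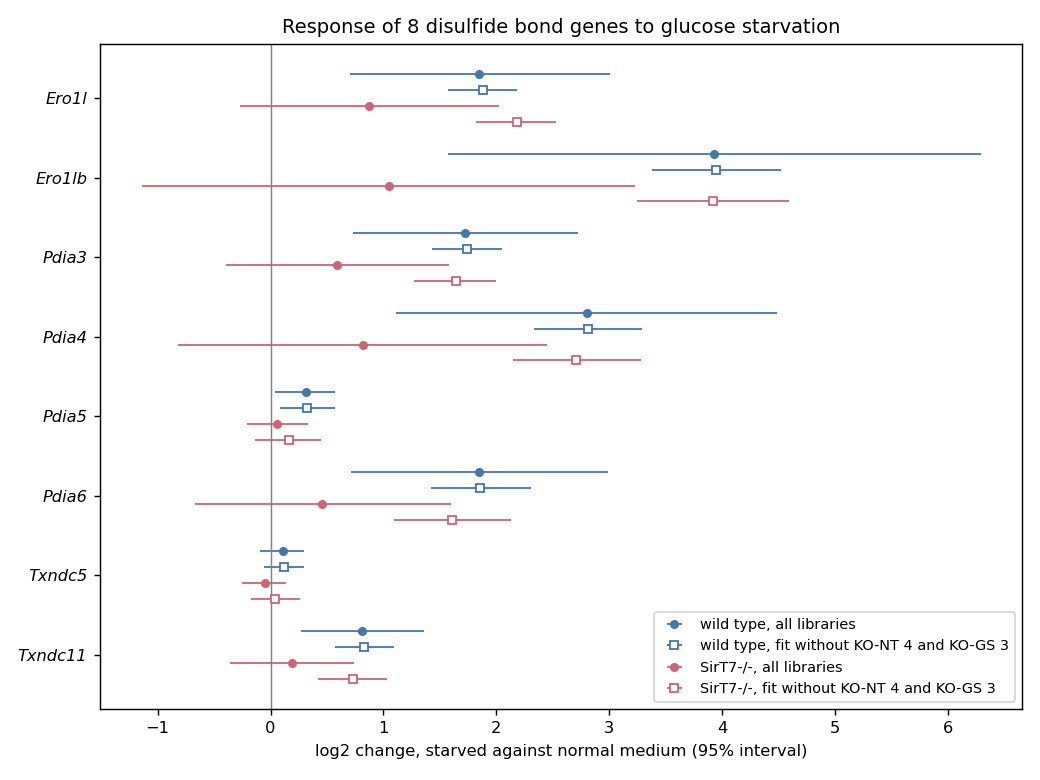
Log2 change of each gene, starved against normal medium (horizontal axis), with 95% intervals. Filled points are the fit on all 14 libraries and open squares the fit without the 2 displaced libraries, in wild-type (blue) and SirT7-/- cells (red); for Ero1lb in SirT7-/- cells the value goes from 1.05 to 3.92.

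Together the 8 genes took 0.325, 0.331, 0.3 and 0.285% of all counts in the WT-NT libraries, against 1.16, 0.892 and 0.956% in the WT-GS libraries. The mix changed as well as the sum. There were 2.63 to 3.3 counts of Ero1lb per 100 of Ero1l in WT-NT, and 10.8 to 13.8 per 100 in WT-GS. There were 27.1 to 29.4 counts of Pdia4 per 100 of Pdia3 in WT-NT and 56.2 to 62.7 in WT-GS. Both ratios compare counts and not molecules, since the genes differ in length. Against Hspa5, the main ER chaperone, Pdia3 went from 87.4 to 115 counts per 100 in WT-NT to 56.9 to 64.3 in WT-GS, and Pdia6 from 41.5 to 49.5 to 29.2 to 33.9. Pdia4 went the other way, from 24.2 to 31.1 counts per 100 of Hspa5 to 32 to 40.3. For each of these ratios the wild-type groups did not overlap. The sum of both oxidases per 100 counts of the other 6 genes did overlap, at 3 to 5.69 in WT-NT and 4.64 to 5.95 in WT-GS. In SirT7-/- cells the ratio of Ero1lb to Ero1l was 3.37 to 4.39 per 100 in KO-NT 1 to 3, 16.3 in KO-GS 1 and 9.84 in KO-GS 2. It was 15 in the library labelled KO-NT 4 and 3.05 in that labelled KO-GS 3. The ratio of Pdia4 to Pdia3 was 27.9 to 28.8 per 100 in KO-NT 1 to 3, 67 in KO-GS 1 and 48.2 in KO-GS 2, with 64.9 and 27.3 in the displaced libraries in the same order. By these ratios both libraries lay with the other medium. Per 100 counts of Hspa5 the picture was less uniform. Pdia4 was at 24.6 to 25.4 in KO-NT 1 to 3, 53.4 in KO-GS 1 and 27.2 in KO-GS 2, with 44.2 in the library labelled KO-NT 4 and 32.6 in that labelled KO-GS 3, which is above KO-GS 2. Pdia3 was at 87.6 to 88.6 in KO-NT 1 to 3, 79.7 in KO-GS 1 and 56.5 in KO-GS 2, with 68.1 and 119 in the displaced libraries. Pdia6 was at 45.5 to 46.6 in KO-NT 1 to 3, 42.4 in KO-GS 1 and 27.5 in KO-GS 2, with 38 and 45.2 in the displaced libraries.

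**Figure D3:**
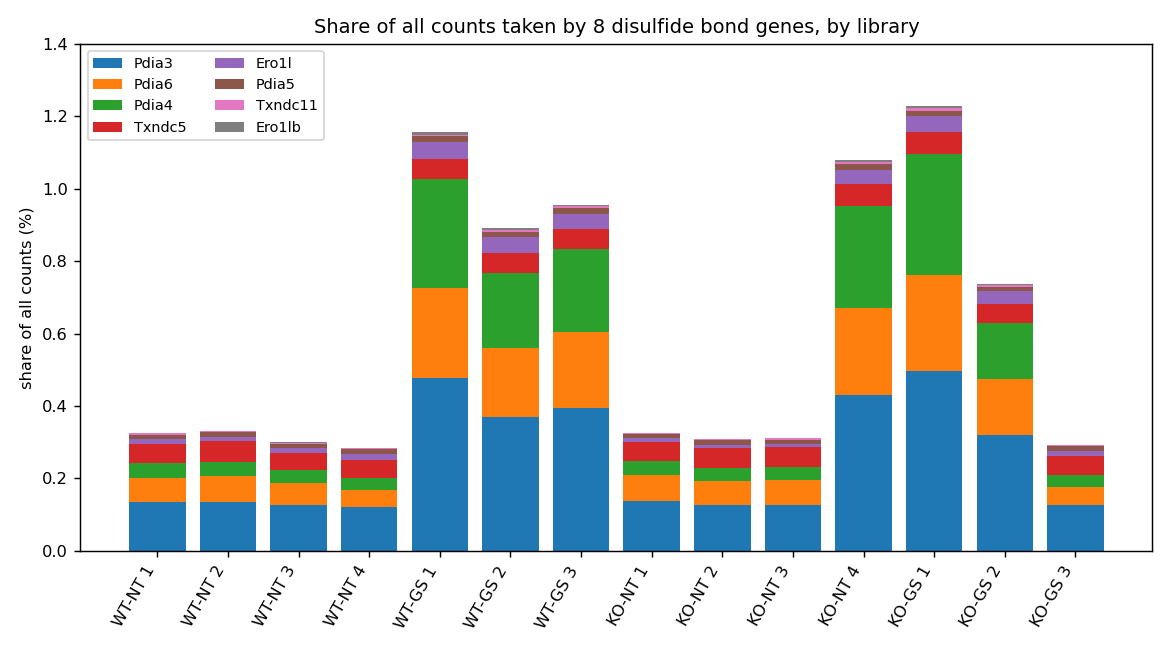
Share of all counts in percent (vertical axis) taken by the 8 genes in each library (horizontal axis), stacked by gene. WT-GS libraries stand at 0.892 to 1.16% and WT-NT libraries at 0.285 to 0.331%, KO-NT 4 at 1.08% and KO-GS 3 at 0.292%, both as labelled.

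In SirT7-/- cells as labelled, no gene passed the test for starvation, and without the 2 displaced libraries the same 6 genes as in wild-type cells did. With all libraries edgeR called 0 of the 8 genes and 0% of all 15666, and 0 of the 8 had an unadjusted p under 0.05; DESeq2 and limma-voom also called 0 of the 8, and 1.63% and 0% of all genes. Log2 changes ran from -0.05 for Txndc5 to 1.05 for Ero1lb, with a median of 0.53 against 0.01 over all genes. Without both libraries edgeR called 6 higher and 0 lower, where 33.1% of 15864 genes were called and 18.6% were called higher, and the median was 1.62. This choice was made after the levels of the 2 libraries had been seen. It leaves KO-NT with 3 libraries and KO-GS with 2. Without the library labelled KO-NT 4 alone, 4 genes were called (Ero1l, Ero1lb, Pdia3 and Pdia4), where 21.1% of all genes were called.

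The levels show where the difference lies. Ero1lb was at 4.21, 3 and 3.4 CPM in KO-NT 1 to 3 and at 60.7 CPM in the library labelled KO-NT 4. It was at 73.6 and 34.2 CPM in KO-GS 1 and 2 and at 3.91 CPM in the library labelled KO-GS 3. The displaced library of each group thus had the level of the other medium. Without both, the log2 change of Ero1lb was 3.92 (SE 0.302, edgeR adjusted p = 2.9e-05). Ero1l was at 95.7, 89.1, 79.2 and 404 CPM in KO-NT 1 to 4 and at 451, 348 and 128 CPM in KO-GS 1 to 3, with a log2 change of 2.18 (SE 0.161, edgeR adjusted p = 2.23e-05) without both. Pdia4 was at 384, 353, 370 and 2800 CPM and then at 3340, 1540 and 347 CPM, with a log2 change of 2.71 (SE 0.256, edgeR adjusted p = 6.8e-05) without both. For all 3 genes KO-GS 2 lay below KO-GS 1 by more than the whole range of WT-GS.

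Pdia3 was at 1380, 1260, 1280 and 4310 CPM in KO-NT and at 4980, 3190 and 1270 CPM in KO-GS, with a log2 change of 1.64 (SE 0.166, edgeR adjusted p = 9.49e-05) without both libraries. Pdia6 was at 709, 669, 679 and 2410 CPM and then at 2650, 1550 and 482 CPM, with 1.61 (SE 0.236, edgeR adjusted p = 0.00072). Txndc11 was at 33.7, 33.5, 36 and 60 CPM and then at 65, 49.3 and 27.7 CPM, with 0.73 (SE 0.138, edgeR adjusted p = 0.00288). In these 3 genes too, the 2 displaced libraries lay with the other medium and the remaining groups did not overlap. Pdia5 was at 118, 125, 123 and 154 CPM and then at 152, 121 and 140 CPM, and Txndc5 at 540, 554, 544 and 601 CPM and then at 588, 541 and 520 CPM. Neither passed the edgeR test without both libraries, at 0.16 (SE 0.133, adjusted p = 0.394) for Pdia5 and 0.04 (SE 0.0987, adjusted p = 0.763) for Txndc5. In each of the 12 fits that left out a further library, 6 of the 8 genes were called, where 21.4% to 39.9% of all genes were called.

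SirT7-/- and wild-type cells were compared within each medium, and no gene of the 8 was called in either. In normal medium edgeR called 0 of 8 genes, with 0.00638% of all genes called; DESeq2 and limma-voom also called 0 of the 8, and 0.147% and 0.0191% of all genes. In edgeR 1 of the 8 had an unadjusted p under 0.05. That gene was Ero1lb, with a log2 difference of 2.30 (SE 0.993, adjusted p = 0.968); without both displaced libraries it was -0.01 (95% interval -0.56 to 0.54, adjusted p = 0.995). In that fit too 0 of 8 genes were called, with 0.0252% of all genes called, and Ero1l was the 1 gene with an unadjusted p under 0.05. Its log2 difference was -0.48 (SE 0.137, 95% interval -0.79 to -0.18, edgeR adjusted p = 0.491), from a level of 126 ± 24.2 CPM (SD, n = 4) in WT-NT to 88 ± 8.32 CPM (SD, n = 3) in KO-NT 1 to 3. The ranges of these groups overlapped, since WT-NT 2 stood at 93.7 CPM and KO-NT 1 at 95.7 CPM. For Pdia3, Pdia5 and Txndc5 the 95% interval of the difference without both libraries stayed within 0.35 of 0 on the log2 scale, from -0.28 for Pdia5 to 0.35 for Pdia3.

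In medium without glucose edgeR called 0 of 8 genes, with 0.00638% of all genes called with all libraries and 0.0063% without both. The log2 differences between genotypes ran from -0.58 to -0.07 with all libraries, and from -0.20 for Pdia5 to 0.01 for Txndc11 without both. Of the 8, 0 had an unadjusted p under 0.05 in either fit, and with all libraries DESeq2 and limma-voom called 0. Without both, the 95% interval was -0.54 to 0.18 for Ero1l, -0.67 to 0.59 for Ero1lb and -0.61 to 0.51 for Pdia4. With 2 libraries left in KO-GS, differences of this size could not be resolved.

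The difference between the genotypes' responses was tested as an interaction. With all libraries edgeR called 0 of 8 genes and 0% of all genes, and 0 of the 8 had an unadjusted p under 0.05; DESeq2 and limma-voom called 0 of the 8 as well. The estimates were lower in SirT7-/- cells for every gene, from -0.16 for Txndc5 to -2.88 (95% interval -6.07 to 0.31, adjusted p = 0.68) for Ero1lb. Without both libraries edgeR again called 0 of 8 genes and 0% of all genes, with 0 unadjusted, and the estimates ran from -0.26 for Pdia6 to 0.30 for Ero1l. The interval for Ero1lb was then -0.87 to 0.81 and that for Pdia3 -0.58 to 0.38. The estimate for Ero1l turned from -0.98 with all libraries to 0.30 (95% interval -0.16 to 0.77).

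Correlations across libraries fell along the same division. Over log2 CPM of the 14 libraries, the 15 pairs among Ero1l, Ero1lb, Pdia3, Pdia4, Pdia6 and Txndc11 had Pearson correlations of 0.877 to 0.999. Pdia5 correlated with these 6 at 0.516 to 0.677, Txndc5 with them at 0.365 to 0.659, and both with each other at 0.627. The libraries share the contrast between media and the same totals, so these values are a description. Searched over all genes tested, those most like Pdia3 and Pdia4 were the same 5: the co-chaperone Dnajb11, the chaperones Calr, Hsp90b1 and Hyou1, and Herpud1, a factor of ER-associated degradation. Their correlations ran from 0.996 to 0.999 with Pdia3 and from 0.997 to 0.999 with Pdia4. Nearest to Ero1lb were Dnajc3 at 0.997, Sel1l, Edem1, Dnajb11 and Ormdl2, of which Sel1l and Edem1 also serve ER-associated degradation. Nearest to Pdia6 were Ccdc134 at 0.995, Snhg1, Slc35b1, Creld2 and Prmt3. Txndc11 was nearest to Ppp1r15a at 0.984, which reverses the translation block of Eif2ak3, then to Sdf2l1, Whamm, Btbd19 and Snhg1.

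Ero1l had other neighbours than Ero1lb. The genes most like it were Seh1l, Leprel1, Lyrm9, Leprotl1 and Pabpc1, at 0.990 to 0.993, of which Leprel1 is a collagen prolyl hydroxylase and the others are not known as ER folding factors. For Pdia5 the nearest were Josd1 at 0.901, Fam3a, Aig1, Rnh1 and Zfp872, and for Txndc5 they were Nme2 at 0.93, Rps19bp1, Tmem120a, Aurkaip1 and Scamp4. None of these 10 genes is on the list of ER chaperones.

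Other genes of oxidative folding moved in both directions. Of 27 listed genes 24 were tested, and in wild-type cells edgeR called 11 higher and 1 lower, with a median log2 change of 0.51 against -0.04 over all genes. Over all genes tested 25.9% were called and 12.9% were called higher. Creld2, a secreted ER protein with isomerase-like activity, stood apart at 47 ± 8.99 CPM (SD, n = 4) in WT-NT and 428 ± 88.5 CPM (SD, n = 3) in WT-GS, a log2 change of 3.23 (SE 0.948, edgeR adjusted p = 0.0322). Its relative Creld1 rose by 1.08 (SE 0.371, edgeR adjusted p = 0.0497). Erp44, which retains Ero1 oxidases in the early secretory pathway since they lack a retention signal of their own, went from 85.6 ± 7.46 to 175 ± 12.5 CPM, or 1.07 on the log2 scale (SE 0.276, edgeR adjusted p = 0.0247). Dnajc10, a reductase of ER-associated degradation, rose by 0.78 (SE 0.186, edgeR adjusted p = 0.0245). The membrane-bound Tmx thioredoxins rose, with log2 changes of 0.75 for Tmx2, 0.65 for Tmx4, 0.52 for Tmx3 and 0.34 for Tmx1 (edgeR adjusted p = 0.0247, 0.0364, 0.0275 and 0.0274). Erp27, an isomerase-like protein without active cysteines, rose by 1.34 (edgeR adjusted p = 0.0245), from a level of at most 0.645 CPM in WT-NT to at most 1.47 CPM in WT-GS.

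Routes of oxidation that bypass Ero1 did not move as a block. Qsox2, a sulfhydryl oxidase, and Vkorc1l1, a vitamin K reductase, both rose by 0.52 (edgeR adjusted p = 0.0285 and 0.0245), while their relatives stood at -0.06 for Qsox1 (edgeR adjusted p = 0.771) and -0.30 for Vkorc1 (edgeR adjusted p = 0.153). Among the peroxide-using enzymes Gpx7 fell from 40.1 ± 7.47 to 23.2 ± 1.8 CPM, or by 0.74 on the log2 scale (SE 0.253, edgeR adjusted p = 0.0476). Gpx8 stood at -0.20 and Prdx4 at -0.23, and neither passed the test (edgeR adjusted p = 0.471 and 0.223). Not called either were P4hb, Sumf1, Txndc16, Erp29, Pdia2, Txndc12, Sumf2 and Selm, with log2 changes from -0.64 for Selm to 0.70 for P4hb. Pdilt, Agr2 and Agr3 did not pass the filter. Without the 2 displaced libraries in the fit, wild-type calls were 15 higher and 1 lower, where 39.6% of all genes were called and 20.4% were called higher. SirT7-/- calls in that fit were 13 higher and 2 lower, with a median of 0.39, where 33.1% of all genes were called and 18.6% were called higher. With all libraries SirT7-/- calls were 0, with 0% of all genes called.

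Of these 24 genes P4hb alone was called between genotypes in normal medium, and that in the fit without the 2 displaced libraries. It was at 1560, 1740, 1450 and 1400 CPM in WT-NT 1 to 4 and at 3410, 3370, 3350 and 2590 CPM in KO-NT 1 to 4, with no overlap. The log2 difference was 1.08 (SE 0.239, edgeR adjusted p = 0.891) with all libraries and 1.16 (SE 0.133, edgeR adjusted p = 0.017) without the 2 displaced libraries. It was not tested whether this difference follows from loss of the SirT7 protein or from the altered allele itself. Every SirT7-/- library carries that allele, so the design cannot tell these apart. In WT-GS P4hb was at 2590, 2390 and 2300 CPM and in KO-GS 1 to 3 at 2850, 3980 and 1470 CPM. The last of these, in a displaced library, lay within the range of WT-NT and below every KO-NT library. The other displaced library, KO-NT 4, lay below KO-NT 1 to 3, at the 2590 CPM of WT-GS 1. Starvation changed it by 0.70 in wild-type cells (SE 0.253, edgeR adjusted p = 0.0565; 0.72 and 0.00178 without both libraries) and by 0.02 in SirT7-/- cells without both (SE 0.16, edgeR adjusted p = 0.94). The interaction was -0.70 without both (edgeR adjusted p = 1), so the 2 responses were not shown to differ.

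**Figure D4:**
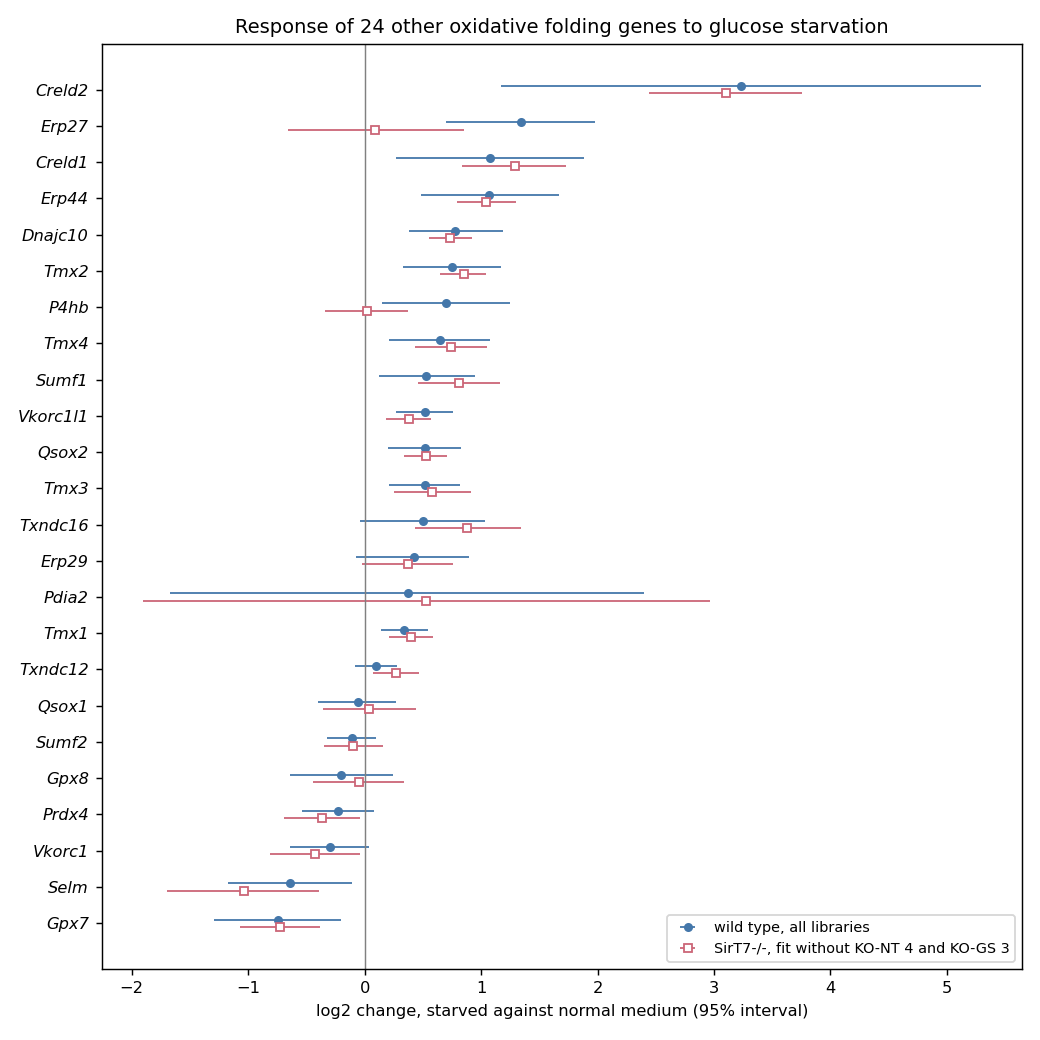
Log2 change, starved against normal medium (horizontal axis), of the 24 other oxidative folding genes tested, with 95% intervals. Blue points are wild-type cells in the fit on all libraries and red squares SirT7-/- cells without the 2 displaced libraries; Creld2 lies at 3.23 and 3.10, and P4hb at 0.70 and 0.02.

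The surroundings of the pathway moved in wild-type cells as follows, in lists chosen with earlier results of these data known. Of all genes tested 25.9% were called and 12.9% were called higher. Of 13 listed ER chaperones edgeR called 11 higher and 0 lower, with a median log2 change of 2.34. Hspa5 had a log2 change of 2.34 (SE 0.592, edgeR adjusted p = 0.0246), with 1060 to 1480 CPM in WT-NT and 6210 to 7430 CPM in WT-GS. Calr and Canx, the lectin chaperones that partner Pdia3, rose by 1.79 and 1.3 (edgeR adjusted p = 0.025 and 0.0247). Of 10 sensors and factors of the unfolded protein response 6 were called higher and 0 lower, with a median of 0.75. Atf6 rose by 1.55, Ern1 by 0.92 and Eif2ak3 by 0.83 (edgeR adjusted p = 0.0245, 0.0254 and 0.0338). Of 16 targets of hypoxia, a pathway for which Ero1l is also known, 8 were called higher and 0 lower, with a median of 0.66. Ndrg1 rose by 1.05, P4ha1, a collagen prolyl hydroxylase, by 0.64 and the glycolytic enzyme Pgk1 by 0.63 (edgeR adjusted p = 0.0326, 0.0306 and 0.0275). Cytosolic thiol redox genes went without a common direction, with 1 of 10 called higher, 2 lower and a median of -0.22. Calls among them were about as common as over all genes. Glrx, a glutaredoxin, fell by 1.19 and glutathione reductase Gsr by 0.78 (edgeR adjusted p = 0.0333 and 0.0326), and Gclc, which starts glutathione synthesis, rose by 0.41 (edgeR adjusted p = 0.0406).

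Without the 2 displaced libraries, the same lists in SirT7-/- cells gave 12 of 13 chaperones higher (median 2), 7 of 10 factors of the unfolded protein response higher (median 0.84) and 9 of 16 hypoxia targets higher (median 0.72). In each of these lists 0 were lower, while over all genes of that fit 33.1% were called and 18.6% were called higher. Of the cytosolic thiol redox genes 5 of 10 were lower and 0 higher, against 2297 of all 15864 genes called lower. With all libraries edgeR called none of these genes and 0% of all genes in SirT7-/- cells, with 0 to 3 per list at an unadjusted p under 0.05.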

How the data were processed

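Total RNA of 14 libraries was extracted with an RNeasy kit and prepared with TruSeq RNA kit v2, per the labels' protocols. The deposited table holds estimated counts per gene as whole numbers. Per the submitters' processing notes, FastQC 0.11.3, Trimmomatic 0.36, HISAT2 2.1.0, SAMtools, StringTie 1.3.3 and DESeq2 1.18.1 were used, with build mm9. The annotation and strand setting are not given in the sources used here, so overlapping genes could share reads. Counts were used as deposited, without further scaling.

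edgeR 4.0.16 under R 4.3.3 was applied to the counts (quasi-likelihood F-test, robust dispersion, TMM, filterByExpr with minimum count 10 and minimum total count 15, 1 mean per group over all 14 libraries). Benjamini-Hochberg adjustment ran over all genes tested, within each of 5 comparisons, with calls at adjusted p under 0.05. CPM were scaled by library total, and correlations used log2 CPM with a prior count of 2. With 3 counts as the limit that a count of 0 allows, the library of lowest depth has a floor of 0.0502 CPM (counting error only).

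Alternatives were DESeq2 1.42.0, limma-voom (limma 3.58.1), RLE scaling, scaling by library total, omission of the filter, a filter that asked for 1 CPM throughout a group with a mean count of 50, a fit restricted to the groups of each comparison, a block by replicate number, and omission of each library in turn. Fits that omit KO-NT 4 and KO-GS 3 were chosen after seeing the data.

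The 8 genes and the other lists were chosen with earlier results of these data known. Named genes are Sirt7, the 8 genes, the other oxidative folding genes, up to 4 genes per further list with the smallest p in wild-type starvation, and the 5 genes most correlated with each of the 8. Promoter letters come from RefSeq windows on GRCm38.p6, exon lengths from GENCODE M21.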

Additional observations from a re-analysis of the deposited data

Results flagged for a closer look

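Each group of 4 libraries was checked for a single library far from the other 3, by the gap to its nearest neighbour as a share of the group's range, set against Dixon's 95% critical value. Chance flags about 1 group in 20, and 16 groups were checked. The genes share the same libraries, and 6 of them correlate at 0.877 to 0.999. Flags of 1 library in several genes are therefore not independent. The library labelled KO-NT 4 was flagged in 6 of the 8 genes: Ero1l at 404 CPM, Ero1lb at 60.7 CPM, Pdia3 at 4310 CPM, Pdia4 at 2800 CPM, Pdia6 at 2410 CPM and Txndc11 at 60 CPM. The gap was 0.909 of the range for Txndc11 and 0.987 for Pdia4, with the other 4 between. WT-NT 2 was flagged for Ero1lb, at 2.48 CPM with a gap of 0.867 of the range. KO-GS has 3 libraries and was not checked in this way.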

How the results depend on the processing

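In wild-type starvation the alternatives other than leaving out libraries called 6 or 7 of the 8 genes, and leaving out single libraries gave 0 to 8, with and without the 2 displaced libraries (KO-NT 4 and KO-GS 3 as labelled) in the fit. Of all genes, these alternatives called 17% to 42.3%, and leaving out single libraries from all 14 called 0% to 36%. With both displaced libraries out as well, the share was 28.9% to 47.3%. In SirT7-/- starvation the alternatives other than those named here called 0, and leaving out single libraries gave 0 to 6. Leaving out single libraries from all 14 called 0% to 21.1% of all genes. Replicate number as a block gave 1 call in SirT7-/- cells (Ero1l, log2 change 1.48, adjusted p = 0.0468) and 7 in wild-type cells. Correlations of same-numbered libraries, after removal of group means, ran from -0.116 to 0.458 and were over 0.1 in 8 of 13 pairs. Those of differently numbered libraries ran from -0.545 to 0.461. Between WT-GS and KO-GS they were 0.0352 to 0.458 for same numbers and -0.385 to 0.248 for different numbers. These values do not settle whether same-numbered libraries share a source. The labels do not say that a number marks one, so the numbers were not taken to pair the samples. Without both libraries 6 genes were called in SirT7-/- cells, and with the block added also 6, where 33.1% and 35.4% of all genes were called. Across all genes the block gave 3096 calls in SirT7-/- and 6633 in wild-type starvation, against 0 and 4063 without it, and DESeq2 gave 255 and 5745. Between genotypes DESeq2 called 23 genes in normal medium and 7 in starvation, against 1 and 1 by edgeR, and 5 against 0 in the interaction.

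Between genotypes in either medium and in the interaction, 0 of the 8 genes were called under every alternative run. No estimate that changed sign had passed the test. Without both libraries the log2 change turned to 0.044 for Txndc5 in SirT7-/- starvation (0.018 with the block), to -0.482 for Ero1l (-0.396 with the block), -0.01 for Ero1lb and -0.037 for Pdia5 between genotypes in normal medium, to 0.005 for Txndc11 (0.019 with the block) between genotypes in starvation, and to 0.302 for Ero1l (0.214 with the block) in the interaction. With the block and without both, Pdia3 stood at -0.001 and Pdia4 at -0.006 between genotypes in normal medium.

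Leaving out single libraries, with or without both, gave these ranges of log2 change where a sign turned. In SirT7-/- starvation they were -0.032 to 3.104 for Pdia4, -0.008 to 0.243 for Pdia5, -0.118 to 1.877 for Pdia6, -0.08 to 0.044 for Txndc5 and -0.079 to 0.845 for Txndc11. In the fits without both, Pdia4 stayed between 2.065 and 3.104 and Pdia6 between 1.184 and 1.877. The signs of these 2 genes turned only with a displaced library in the fit. Between genotypes in normal medium they were -0.592 to 0.656 for Ero1l, -0.15 to 2.658 for Ero1lb, -0.006 to 1.716 for Pdia4 and -0.125 to 0.101 for Pdia5. Between genotypes in starvation they were -1.511 to 0.371 for Ero1lb, -0.915 to 0.183 for Pdia3, -1.396 to 0.363 for Pdia4, -1.108 to 0.211 for Pdia6 and -0.556 to 0.148 for Txndc11. In the interaction they were -1.353 to 0.428 for Ero1l, -3.834 to 0.376 for Ero1lb, -1.609 to 0.137 for Pdia3, -2.845 to 0.309 for Pdia4, -1.982 to 0.031 for Pdia6 and -0.91 to 0.033 for Txndc11. Where a fit leaves KO-GS with 1 library, that library is assumed to vary like the other groups. The causes were not tested.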
